A study of Mus musculus with 2 samples.

Results

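The IFI200 genes are a cluster of related genes on mouse chromosome 1 whose transcripts were compared between macrophages with and without IL-36 gamma. The 9 members are Ifi203, Ifi204, Ifi205, Ifi207, Ifi208, Ifi209, Ifi211, Ifi213 and Mndal, taken by symbol among the 54446 genes of the count tables, and all 9 were found. The control group is 1 library of untreated bone marrow derived macrophages of C57BL/6 mice, and the treated group is 1 library of the same kind of cells given the interleukin-1 family cytokine IL-36 gamma. Dose, duration, number of mice and culture conditions: not given in the sources used here. Every difference below is between these 2 libraries, has no replicate check and carries no p-value. Its interval is the exact 95% Clopper-Pearson interval of the ratio, which covers counting error only and no variation between cultures.

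Proteins of this family, also called PYHIN proteins, typically pair a pyrin domain, which binds other pyrin domains, with one or more HIN domains, which bind DNA. Aim2, the best known member, binds DNA in the cytosol and assembles an inflammasome with the adaptor encoded by Pycard and with caspase-1. Ifi204 is the mouse gene most often set beside human IFI16, a DNA sensor that acts through the adaptor STING to induce interferon. Genes of the cluster are known as interferon-inducible in myeloid cells, and the family has expanded in the mouse into close copies that differ in which domains they carry.

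The 9 members lie between positions 173566283 and 174031810 of chromosome 1 (mm10), a span of 466 kb, with 7 on the minus strand and 2, Ifi208 and Ifi209, on the plus strand. All are annotated as protein-coding. A further 8 annotated genes, most of them pseudogenes, lie inside that span. Together with the 4 other PYHIN genes Aim2, Ifi206, Ifi214 and Ifi202b, the family covers 681 kb.

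The sequences just upstream of the start sites are shown first because many of them are near copies of each other. RefSeq's promoter windows (build GRCm38.p6) run from 250 bases before to 50 after each start site and were found for 8 of the 9 members; Ifi204 had no entry. Alignment gave 90.7% identity between windows of Mndal and Ifi203, 89.5% between Ifi213 and Ifi208 and 85.9% between Ifi207 and Ifi211. The Ifi209 window was 95.3% identical to that of Ifi214, and the Ifi208 window 87.5% identical to that of Ifi206. Windows of Ifi205 and Ifi211 had 189 same bases in 399 alignment columns (47.4%). Their matching parts are offset within the windows, and the unmatched ends count as differences. Windows of 5 members are printed, with capitals marking matches to the core of the interferon-stimulated response element. They lie at chr1:173741760-173742059 (Ifi207, minus strand), chr1:173912997-173913296 (Ifi211, minus), chr1:173673415-173673714 (Ifi208, plus), chr1:173599223-173599522 (Ifi213, minus) and chr1:173630609-173630908 (Ifi209, plus), each written 5′ to 3′ on the strand of the gene.
Ifi207: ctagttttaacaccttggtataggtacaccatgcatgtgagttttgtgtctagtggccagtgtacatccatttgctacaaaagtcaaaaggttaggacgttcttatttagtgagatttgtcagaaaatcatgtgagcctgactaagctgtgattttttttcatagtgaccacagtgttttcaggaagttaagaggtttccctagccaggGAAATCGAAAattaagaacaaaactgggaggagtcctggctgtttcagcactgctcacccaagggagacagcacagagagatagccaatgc
Ifi211: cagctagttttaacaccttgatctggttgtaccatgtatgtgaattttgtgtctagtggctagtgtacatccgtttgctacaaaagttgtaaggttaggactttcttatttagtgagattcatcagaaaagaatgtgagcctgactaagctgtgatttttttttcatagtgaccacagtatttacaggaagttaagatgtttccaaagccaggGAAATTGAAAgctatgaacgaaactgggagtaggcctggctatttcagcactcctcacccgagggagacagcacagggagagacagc
Ifi208: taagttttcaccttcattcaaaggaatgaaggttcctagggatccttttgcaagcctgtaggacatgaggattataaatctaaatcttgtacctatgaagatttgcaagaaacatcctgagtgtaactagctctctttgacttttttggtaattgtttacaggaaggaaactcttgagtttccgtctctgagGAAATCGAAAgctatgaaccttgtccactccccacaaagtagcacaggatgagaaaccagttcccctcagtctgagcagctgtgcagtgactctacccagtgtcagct
Ifi213: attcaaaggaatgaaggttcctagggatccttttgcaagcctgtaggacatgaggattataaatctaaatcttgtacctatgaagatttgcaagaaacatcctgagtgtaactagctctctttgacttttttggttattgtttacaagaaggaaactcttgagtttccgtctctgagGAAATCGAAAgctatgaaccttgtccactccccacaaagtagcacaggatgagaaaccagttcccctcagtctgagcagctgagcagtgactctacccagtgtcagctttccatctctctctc
Ifi209: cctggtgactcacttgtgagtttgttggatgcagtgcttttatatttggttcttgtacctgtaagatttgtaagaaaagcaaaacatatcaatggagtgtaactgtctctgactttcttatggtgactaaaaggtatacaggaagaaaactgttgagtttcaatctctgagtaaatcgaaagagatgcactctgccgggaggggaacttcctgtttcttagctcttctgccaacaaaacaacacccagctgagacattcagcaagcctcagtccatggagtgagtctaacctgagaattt

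The core searched for was GAAANNGAAA on either strand. It was present for 7 of the 8 members with a window, all on the strand of the gene, with its first base at positions from -134 to -35 relative to the start site. Of all genes with a promoter window, 3.99% (1079 of 27025) hold it. The members' windows are copies of each other in part, so these are not 7 independent matches. The core read GAAATCGAAA in Ifi203, Ifi207, Ifi208, Ifi213 and Mndal and GAAATTGAAA in Ifi205 and Ifi211. Counted from 1 at the core's 5′ end, the difference from Ifi207 to Ifi211 is C6T. The exception was Ifi209, whose bases aligned to the core of Ifi214 read TAAATCGAAA, the single difference being G1T. A second window of Ifi203 held no core, a second window of Mndal held it on the opposite strand, and Ifi205 held a further match on the opposite strand after its start site. The core of the gamma-activated sequence, TTCNNNGAA, which reads the same on both strands, was found in the window of 0 of the 8 members, against 9.55% of all genes with a window, and it overlapped no match of the other core. A match of letters is a description and does not show that a factor binds there.

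Because the members are close copies, the share of each transcript that could be told from another gene was computed from the GENCODE M21 transcripts. Ifi211 was the least distinct, with 72.8% of its 50-base stretches and 56.9% of its 100-base stretches also present in a transcript of another gene. Its stretches of 50 bases were shared with Ifi205 (44.7%), Ifi204 (30.1%) and Mndal (17.1%). Ifi209 shared 33.7%, nearly all of it with Ifi214 (33.4%). Ifi208 (20.9%), Ifi204 (20.0%), Mndal (19.6%), Ifi205 (18.6%), Ifi213 (15.6%) and Ifi203 (12.4%) came next. Ifi207 was the most distinct, at 7.29% of 50-base and 0.790% of 100-base stretches. No read length is stated in the sources used here. Reads with more than 1 alignment were not counted to a gene (6.65% and 6.92% of all counted alignments in the control and IL-36 gamma libraries), so levels of the less distinct genes are uncertain. Exons of Mndal and Ifi203 overlap by 37 bases, and 118 bases of Mndal lie in exons of the pseudogene Gm38050. Exons of the other 7 members overlap no exon of another annotated gene. Ifi211 nevertheless lies wholly within the span of Mndal, on the same strand.

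The libraries held 17426367 counts in genes (control) and 17267900 (IL-36 gamma). Levels are given as raw counts, as CPM (counts scaled with TMM factors to a library total of 1000000), and per kilobase of exon where genes are compared with each other. The macrophage genes Lyz2 (404546 and 380329 counts), Adgre1 (49439 and 53682) and Cd68 (20755 and 19586) were abundant in both libraries; of 8 macrophage markers 3 had an interval above 1 and 4 below. The B and T cell markers summed to 20 and 6 counts, with Cd3e and Cd8a at 0. Of 8 neutrophil markers, 6 had an interval above 1 and 1 below, and their summed level was 257 and 311 CPM in the control and IL-36 gamma libraries. Mmp8, which had the most counts of them in the control library, was lower with IL-36 gamma (1907 and 1205 counts, a ratio of 0.663). Per kilobase of exon, S100a8 and S100a9 were above Mmp8 in both libraries. The other 7 markers had ratios from 1.53 to 7.70, and the median log2 ratio of the 8 was 0.71. Of 5 monocyte markers, 4 had an interval above 1 and none below, with summed levels of 40.0 and 66.4 CPM and a median log2 ratio of 0.96. Of 6 dendritic cell markers 2 were measured, 1 above and 1 below, and the list summed to 47.1 and 33.5 CPM, with Siglech at 0. The 4 fibroblast markers summed to 9.90 and 5.97 CPM, with Pdgfra at 0. Monocytes and neutrophils can express genes of this cluster, and the part of such cells in the differences below was not tested. Fewer cells of a type and less RNA per cell cannot be told apart in these bulk libraries.

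Ifi207 and Ifi204 carried most of the cluster's transcripts. Per kilobase of exon, the control levels were 56.2 CPM for Ifi207, 40.1 for Ifi204, 24.8 for Ifi211, 20.0 for Mndal, 14.9 for Ifi209, 8.16 for Ifi203, 2.99 for Ifi213, 0.552 for Ifi205 and 0.514 for Ifi208. With IL-36 gamma they were 52.1, 49.1, 32.6, 19.7, 16.3, 7.60, 3.14, 0.495 and 0.955 in the same order of genes. The order was the same in both libraries apart from Ifi205 and Ifi208, the lowest pair, which changed places. Levels per kilobase in the control thus ran from 0.514 to 56.2 CPM. All 9 had a mean count of at least 10, the minimum for a gene to count as measured.

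**Figure D1:**
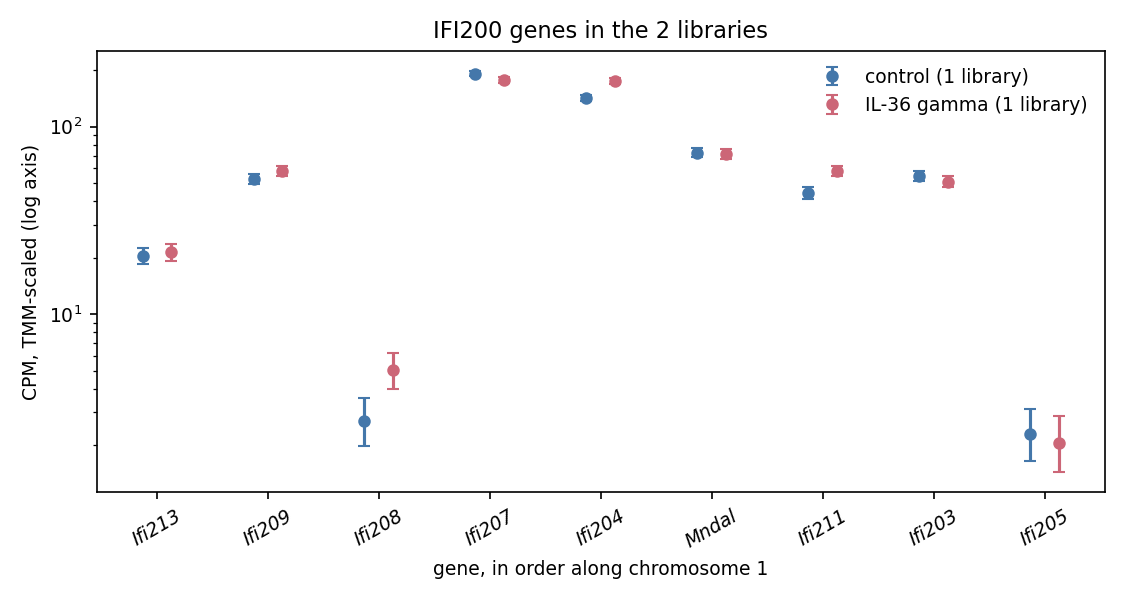
CPM scaled with TMM factors (log axis) of the 9 IFI200 genes, in their order along chromosome 1, in the control library and the IL-36 gamma library; bars are exact 95% Poisson intervals of counting error. Ifi204, Ifi211 and Ifi208 sit higher and Ifi207 lower with IL-36 gamma, with intervals that do not overlap, and Ifi205 and Ifi208 lie far below the others. The share of all measured genes whose intervals do not overlap was not computed.

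Of the 9 members, 4 had a ratio of IL-36 gamma over control with its whole interval above 1 (Ifi204, Ifi208, Ifi209 and Ifi211) and 1 below (Ifi207). Over all 14379 measured genes, 20.2% had an interval above 1 and 16.5% below. No member had its whole interval above 1.5, the fold used to call a gene (0 of 9); 0.348% of measured genes did. The median log2 ratio of the members was 0.07, against 0.01 over all measured genes. Scaling by total counts in place of TMM gave 3 members above and 2 below, where 14.4% of all measured genes were above and 22.4% below. The balance over all genes thus turned round, while more members were still above than below. Ifi209 lost its place above 1 under each of the 6 other scalings, trends and interval levels. Summed over the 9 genes, 10395 control counts and 10503 counts with IL-36 gamma gave a ratio of 1.06 (1.03 to 1.09), or 1.02 (0.992 to 1.05) by total counts. The sum was therefore nearly level, with members on both sides of it.

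Ifi204, which encodes the p204 protein that senses DNA and is also known from macrophage differentiation, had 2539 counts without and 2958 counts with IL-36 gamma. Its level went from 143 to 175 CPM, a ratio of 1.22 (1.16 to 1.29). This was the largest difference in counts among the higher members. Of 3258 genes with a mean count from 1000 to 10000, the middle 90% had ratios from 0.800 to 1.26, a range that includes Ifi204.

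Ifi207, the most abundant member, went the other way, with 3415 and 3020 counts. Its level was 192 CPM in untreated and 178 CPM in treated cells, a ratio of 0.928 (0.884 to 0.975). The interval lies below 1, and the ratio lies inside the range just given for genes of like count. The neighbours Ifi207 and Ifi204, which lie 5.54 kb apart, had ratios on opposite sides of 1.

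Ifi211, whose older name in RefSeq is Mnda, had 787 and 984 counts. Its ratio was 1.31 (1.19 to 1.44), the highest among members with more than 100 counts in each library. It lies just outside the middle 90% of the 6837 genes with a mean count from 100 to 1000, which ran from 0.742 to 1.29. It is also the member least distinct in sequence. Summed with Ifi205, with which it shares most stretches, the ratio was 1.29 (1.18 to 1.42). That sum is made almost wholly of Ifi211, since Ifi205 adds 41 and 35 counts. The sum of Ifi211 and Ifi204, made mostly of Ifi204, had 3326 and 3942 counts and a ratio of 1.24 (1.19 to 1.30).

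Ifi208, known earlier as Pydc3, had the highest ratio of all members on few counts, 48 and 85, a ratio of 1.86 (1.29 to 2.71). It lies just outside the middle 90% of the 4087 genes with a mean count from 10 to 100, 0.477 to 1.84. Its near copy Ifi213, known earlier as Pydc4, had 364 counts in each library and a ratio of 1.05 (0.905 to 1.22). The sum of Ifi208 and Ifi213, which share 18.1% of the 50-base stretches of Ifi208, had a ratio of 1.14 (0.998 to 1.31), and the interval of that sum includes 1.

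Ifi209, known earlier as Pyhin1, had 939 and 981 counts and a ratio of 1.10 (1.002 to 1.2005), whose lower bound is barely above 1. With other scalings, with a trend removed or with a 99% interval the interval of Ifi209 included 1 and its ratio ran from 1.05 to 1.10. Mndal, named for its likeness to myeloid nuclear differentiation antigen, had 1290 and 1213 counts, a ratio of 0.987 (0.912 to 1.07). Ifi203, its partner in upstream sequence, had 972 and 863 counts, a ratio of 0.932 (0.849 to 1.02). Ifi205 had the fewest counts, 41 and 35, and a ratio of 0.896 (0.554 to 1.44), and no difference was detectable at this depth. These 3 genes and Ifi213 had intervals that include 1. By total counts the interval of Ifi203 lay below 1, at 0.896 (0.817 to 0.983).

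**Figure D2:**
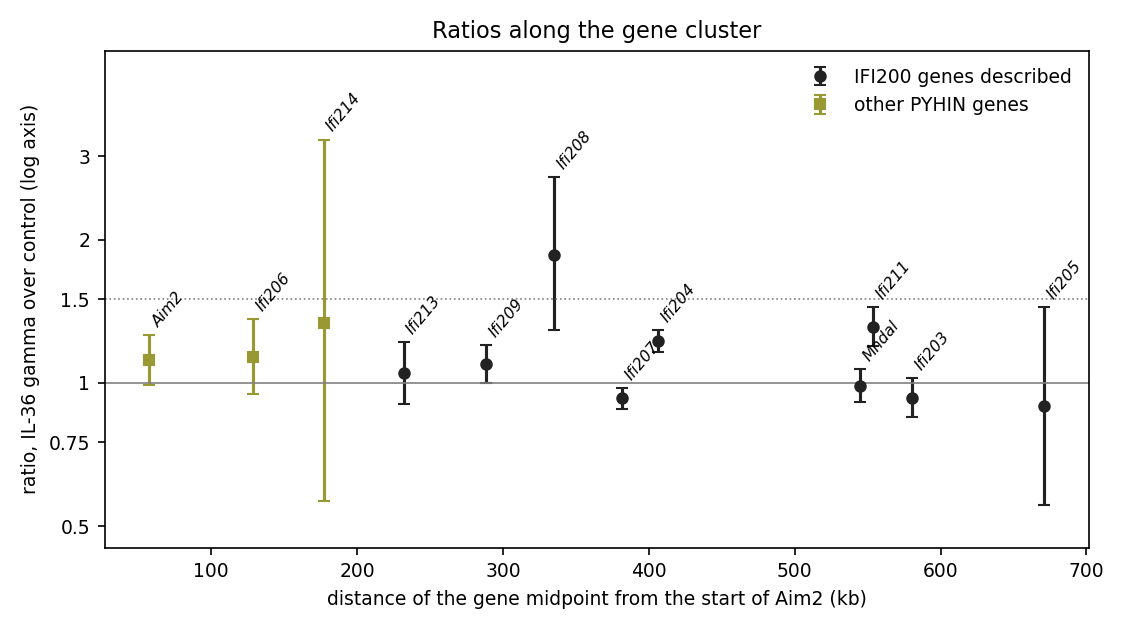
Ratio of IL-36 gamma over control (log axis) for the 9 IFI200 genes (circles) and the 3 measured other PYHIN genes (squares) against the distance of each gene's midpoint from the start of Aim2 in kb; bars are exact 95% Clopper-Pearson intervals, the solid line is a ratio of 1 and the dotted line 1.5. Ratios above and below 1 are interspersed along the cluster, from 0.896 for Ifi205 to 1.86 for Ifi208.

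The sum hardly differed, and the share of each member in it does not depend on the scaling of the libraries. Shares can depend on a trend with length, which was not removed from them. With that trend removed, ratios were nearer to 1 for Ifi203 (0.968), Ifi204 (1.18) and Ifi211 (1.21). They were further from 1 for Ifi207 (0.895) and Ifi208 (1.89). Ifi207 made up 32.9% (31.9 to 33.8, exact Clopper-Pearson) of the 9 genes' counts in untreated and 28.8% (27.9 to 29.6) in treated cells. Ifi204 made up 24.4% (23.6 to 25.3) and 28.2% (27.3 to 29.0). Ifi211 went from 7.57% (7.07 to 8.10) to 9.37% (8.82 to 9.94). These are the shares whose intervals do not overlap between libraries, along with Ifi203 (9.35%, 8.80 to 9.93, and 8.22%, 7.70 to 8.76) and Ifi208 (0.462%, 0.341 to 0.612, and 0.809%, 0.647 to 0.9997). The intervals cover counting error only, and how often those of other genes fail to overlap was not computed. By their ratios, Ifi203, Ifi204 and Ifi207 lay inside the middle 90% of measured genes of like count. The shares of Mndal (12.4% and 11.5%), Ifi209 (9.03% and 9.34%), Ifi213 (3.50% and 3.47%) and Ifi205 (0.394% and 0.333%) had overlapping intervals.

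**Figure D3:**
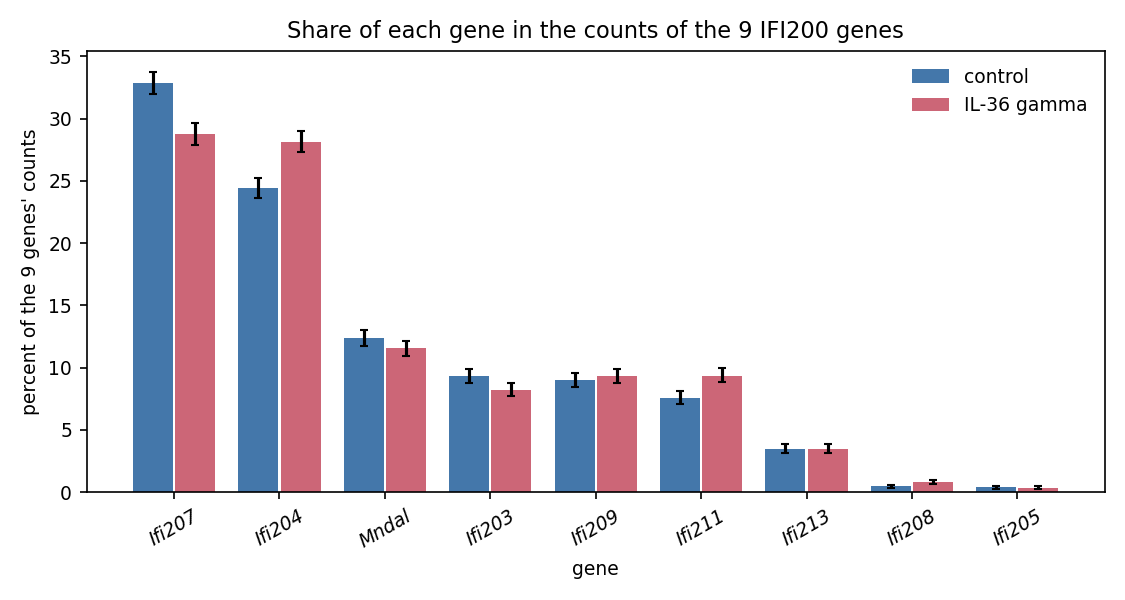
Percent of the counts of the 9 IFI200 genes taken by each gene in the control and the IL-36 gamma library; bars start at 0 and error bars are exact 95% Clopper-Pearson intervals. Ifi207 stands apart from Ifi204 in the control (32.9% and 24.4%), whereas their intervals overlap with IL-36 gamma (28.8% and 28.2%).

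Within a library, Ifi204 had 0.743 (0.706 to 0.783) counts for each count of Ifi207 in untreated and 0.979 (0.931 to 1.03) in treated cells. This quotient was 1.32 times as high with IL-36 gamma (1.22 to 1.42, exact conditional interval of the odds ratio). Ifi211 against Ifi207 had quotients of 0.230 and 0.326, 1.41 times as high (1.27 to 1.57). The upstream windows of Ifi211 and Ifi207 are related and differ at the core by C6T. Ifi205, the other member with the core of Ifi211, had a ratio of 0.896 (0.554 to 1.44) on 41 and 35 counts. Ifi208 against Ifi213, whose windows are alike and whose cores are the same, had quotients of 0.132 and 0.234, 1.77 times as high (1.19 to 2.66). Mndal against Ifi203, also with the same core, had 1.33 and 1.41, a factor of 1.06 (0.937 to 1.197). The part of upstream sequence in these quotients was not tested, and Ifi211 is also the member least distinct in transcript sequence. These 4 pairs were chosen after their values were seen.

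Among the other PYHIN genes, Aim2, the inflammasome sensor, had 527 and 562 counts, a ratio of 1.12 (0.992 to 1.26). Ifi206 had 231 and 250 counts, 1.14 (0.946 to 1.36). Ifi214, which lies nearest to the cluster at 30.3 kb before Ifi213, had 11 and 14 counts, 1.34 (0.563 to 3.25). Each of these 3 intervals includes 1. Ifi202b, a family member without a pyrin domain that is known to hold back Aim2, had 0 counts in untreated and 1 in treated cells, at or under the floor of 3 counts (0.169 and 0.177 CPM). The pseudogene Ifi203-ps, inside the cluster, had 91 and 88 counts, 1.02 (0.749 to 1.38). On the far side, the nearest measured protein-coding gene was Fh1, the fumarate hydratase gene, 1569 kb after Ifi205, with 513 and 531 counts and a ratio of 1.09 (0.960 to 1.23).

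Genes of related pathways are given next, to be read against the 20.2% of all measured genes with an interval above 1 and the 16.5% below. Those shares depend on depth and were not matched to the counts of the genes in each list. Of 24 genes of cytosolic DNA sensing, 23 were measured, 8 with an interval above 1 and 7 below, with a median log2 ratio of 0.05. The sensor gene Cgas had 262 and 230 counts, 0.921 (0.768 to 1.10), and Tmem173, which encodes STING, 369 and 404, 1.15 (0.995 to 1.33). The kinase gene Tbk1 was lower, with 1672 and 1464 counts, 0.919 (0.856 to 0.986), and Irf3, the factor it activates, had 1006 and 993, 1.04 (0.948 to 1.13). The highest ratios were those of the sensor Zbp1 (1.64, 1.46 to 1.86), of Pycard, the adaptor with which pyrin domains assemble (1746 and 2397 counts, 1.44, 1.35 to 1.53), and of Casp1 (1.28, 1.19 to 1.39). The lowest were Prkdc, a kinase of DNA repair (327 and 216 counts, 0.693, 0.581 to 0.826), and Rad50 (581 and 478, 0.864, 0.763 to 0.976). Of the exonic bases of Pycard, 12.8% overlap Gm45205 on the opposite strand. Trex1, the nuclease that clears cytosolic DNA, is listed at 0 in both libraries, and 100% of its exonic bases lie in exons of Atrip, where reads can be ambiguous between the genes.

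Of 12 genes of RNA sensing, 2 had an interval above 1 and 2 below, shares near those over all measured genes (20.2% and 16.5%), with a median log2 ratio of 0.07. Dhx58 (1.30, 1.202 to 1.40) and Ddx58 (1.15, 1.06 to 1.24), both of the RIG-I family, were above, and the third in order was their relative Ifih1 (1.08, 0.982 to 1.19). Tlr8 (0.741, 0.689 to 0.797) was below, and Tlr3 had 190 and 146 counts (0.807, 0.646 to 1.01). Of 16 interferon signalling genes, 15 were measured, 8 above 1 and 3 below, with a median of 0.09. Irf7 (2889 and 5682 counts, 2.06, 1.97 to 2.16) was the 1 gene of these lists with its whole interval above 1.5. It was followed by the feedback genes Socs1 (114 and 154 counts, 1.42, 1.11 to 1.82) and Usp18 (451 and 568, 1.32, 1.17 to 1.499). The receptor genes Ifngr1 (0.881, 0.835 to 0.930) and Ifnar1 (0.940, 0.891 to 0.992) were lowest. Ifnb1 had 0 counts in both libraries, which allows up to 0.169 CPM in untreated and 0.177 CPM in treated cells.

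**Figure D4:**
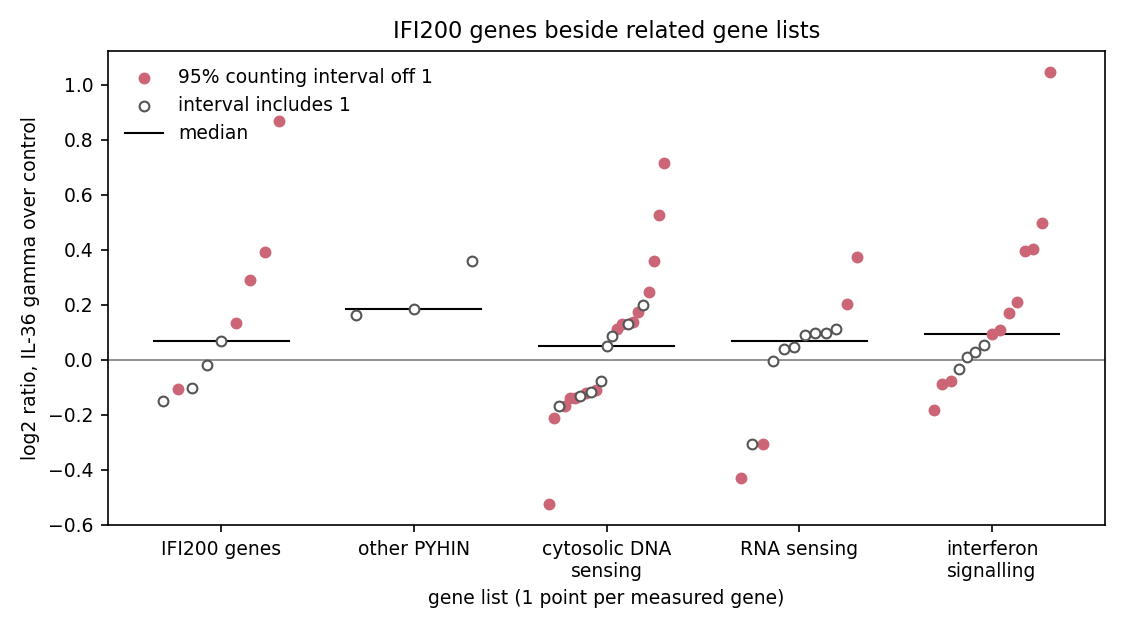
Log2 ratio of IL-36 gamma over control (prior count of 2) for each measured gene of 5 lists; filled points have a 95% counting interval that lies wholly on 1 side of a ratio of 1, open points do not, and the black line is the list's median. Medians run from 0.05 for cytosolic DNA sensing to 0.18 for the 3 other PYHIN genes, and each of the larger lists has members on both sides of 0.

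With 2 libraries each gene has 1 ratio, so no gene was named for a pattern like that of the cluster. Ratios of the members stood within the spread of other genes for 7 of 9, taken as the middle 90% of measured genes of like count; Ifi208 and Ifi211 were outside it. A ratio inside that range says that many genes differed as much between these 2 libraries.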

How the data were processed

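RNA was sequenced as 1 library of untreated and 1 library of treated cells. The authors deposited 1 table of raw counts per library, by Ensembl gene ID. The submitters' processing notes list HTSeq, STAR 2.5.0a, Trim Galore 0.6.1, FastQC 0.11.8 and the build mm10; counting mode, strand setting and annotation release: not given in the sources used here. Rows that name no gene (5) stayed out of library sizes. Alignments assigned to no gene made up 47.2% and 46.3%, and ambiguous ones 1.79% and 1.84%. Gene IDs without version were matched to GENCODE M21 (54409 of 54446).

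Counts were scaled with TMM factors (edgeR 4.0.16 in R 4.3.3). No test was run, since a single library in each group gives no residual degrees of freedom. Ratios of scaled counts carry exact 95% Clopper-Pearson intervals. Their computation was checked on simulated Poisson counts, which hold counting error only and cannot show how the intervals fare with variation between cultures. Reads without molecular identifiers are not independent molecules. Genes with a mean count of 10 or more were measured; log2 ratios used a prior count of 2. Named genes were all members, all other PYHIN genes, the nearest measured neighbours, and, of each related list, the 3 highest, the 2 lowest and some fixed members, of which 1 is not reported here; the markers and the pairs set side by side were named outside this rule, after their values were seen. The members and lists were chosen with earlier results of these data known. Alternatives were scaling by upper quartile, total counts or DESeq2 1.42.0 size factors, trends on length or expression removed (span 0.3), 99% intervals, and other filters, prior counts and folds. Computations used Python 3.11.15, scipy 1.17.1, statsmodels 0.14.6 and biopython 1.88 (global alignment).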

Additional observations from a re-analysis of the deposited data

How the results depend on the processing

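With 1 library per group no library could be left out. No paired analysis was possible because each group has 1 library. By total counts the summed ratio was 1.02 (0.992 to 1.05), the median log2 ratio 0.0131 (-0.05 over all measured genes), and 2 members had an interval below 1, as did 22.4% of all measured genes. With a call fold midway between 1 and 1.5, 1 member passed in place of 0, against 1.52% of all measured genes. Over the 7 members without exonic overlap the median log2 ratio was 0.13. The summed ratio was 1.13 without Ifi207 and ran from 1.02 to 1.06 over the scalings and removed trends. Ifi204, Ifi207, Ifi208 and Ifi211 stayed on their side of 1 under the 6 scalings, trends and interval levels. Sums with close copies, and the sum with the 4 other PYHIN genes and Ifi203-ps (1.06), were chosen after seeing the data. Ifi205 summed with Ifi211 had 1.29, by construction the ratio of the far more abundant Ifi211, and Ifi208 summed with Ifi213 had 1.14. Depth limits Ifi205 and Ifi208 most, with under 100 counts in each library.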
